A study of Mus musculus with 3 samples.

Results

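Neutrophil-like barcodes were taken from the Day 3 and Day 7 single-cell libraries of murine skin wounds by their own transcripts. A barcode (the tag shared by all molecules of 1 droplet) was kept when it held at least 500 unique molecular identifiers (UMIs, counted molecules) and at most 10% mitochondrial UMIs. A kept barcode was counted as neutrophil-like when *S100a8* and *S100a9* made up at least 2% of its UMIs, *C1qa*, *C1qb* and *C1qc* under 0.5%, *Dcn* and *Col1a2* under 1%, and when it held at least 1 UMI of *Csf3r*, *Cxcr2*, *Retnlg* or *G0s2*. In all, 1299 of the 26026 kept barcodes of both days met this rule, 518 of 4454 on Day 3 and 781 of 21572 on Day 7.

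Neutrophils are short-lived granulocytes that leave the bone marrow under granulocyte colony-stimulating factor, enter injured skin along CXCR2 ligands and formyl peptides, and kill microbes with stored granule proteins and with the oxidants of the NADPH oxidase. They carry little mRNA, and most of their granule proteins are transcribed before they leave the marrow. In tissue they transcribe cytokines, chemokines and survival genes, and they are cleared by macrophages as the wound closes.

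The libraries came from unsorted cells of skin wounds in male C57BL/6J mice aged 7–12 weeks by the methods, with 1 library each at Days 3, 7 and 14 after injury and no unwounded skin analysed here. The methods describe full-thickness excisional punch wounds of 4 mm, whereas the record's design text calls the injury incisional. Wound tissue pooled from 4 samples was digested with enzymes, and erythrocyte lysis and debris removal came before droplet capture. Because each day was 1 pooled library, no difference between days or between groups of barcodes has a replicate check, no test was made, and every interval given is a 95% interval of the counting error only.

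Day 3, Day 7 and Day 14 held 5158, 22924 and 16611 barcodes with 38133650, 120940799 and 112713257 UMIs. The neutrophil-like barcodes were shallow, with a median of 1252 UMIs on Day 3 and 741 on Day 7 against 3599.5 and 3517.5 in all kept barcodes. *Gm42418*, a noncoding gene whose locus overlaps ribosomal RNA sequence, took 1.29% of their UMIs on Day 3 and 21.0% on Day 7, and 3.57% and 11.6% over all kept barcodes. Levels are therefore given as CPM, UMI counts scaled to a common total, summed over these barcodes with *Gm42418* left out of the totals, which left 733550 UMIs on Day 3 and 504423 on Day 7. Days 3 and 7 shared 43 barcode sequences, and none of these was neutrophil-like on both days.

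The neutrophil-like barcodes made up 11.6% of kept barcodes on Day 3 (exact binomial interval 10.7 to 12.6), 3.62% on Day 7 (3.38 to 3.88) and 0.0760% on Day 14 (0.0379 to 0.136), where 11 barcodes met the rule. The log2 ratio of the share on Day 7 over Day 3 was −1.68. It was −3.91 among barcodes of at least 1000 UMIs and −4.52 with 0 UMIs of *C1qa*, *C1qb*, *C1qc*, *Dcn* and *Col1a2* asked for. The share was lower on Day 7 in each case, by an amount that depended on the limits. Both limits took away more of the Day 7 barcodes. The first left 397 on Day 3 and 128 on Day 7, and the second 337 and 71. *Col1a2* was at 226 and 3309 CPM in the neutrophil-like barcodes. These values are thus no independent support for a lower share. A share of barcodes depends on how many other cells were released and captured, so fewer neutrophils and more of other cells cannot be told apart.

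The *S100a8* and *S100a9* limit cut through a continuous range. Of barcodes that passed the C1q and fibroblast limits, 93 on Day 3 and 180 on Day 7 lay just outside, at 1.5 to 2% of UMIs, and 50 and 134 lay just inside, at 2 to 2.5%. A UMI of at least 1 of the 4 receptor and marker genes was present in 90.3% and 86.7% of those just outside and in 92.0% and 88.1% of those just inside. The C1q limit removed 1 barcode on Day 3 and 9 on Day 7, and the *Dcn* and *Col1a2* limit a further 0 and 12.

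**Figure D1:**
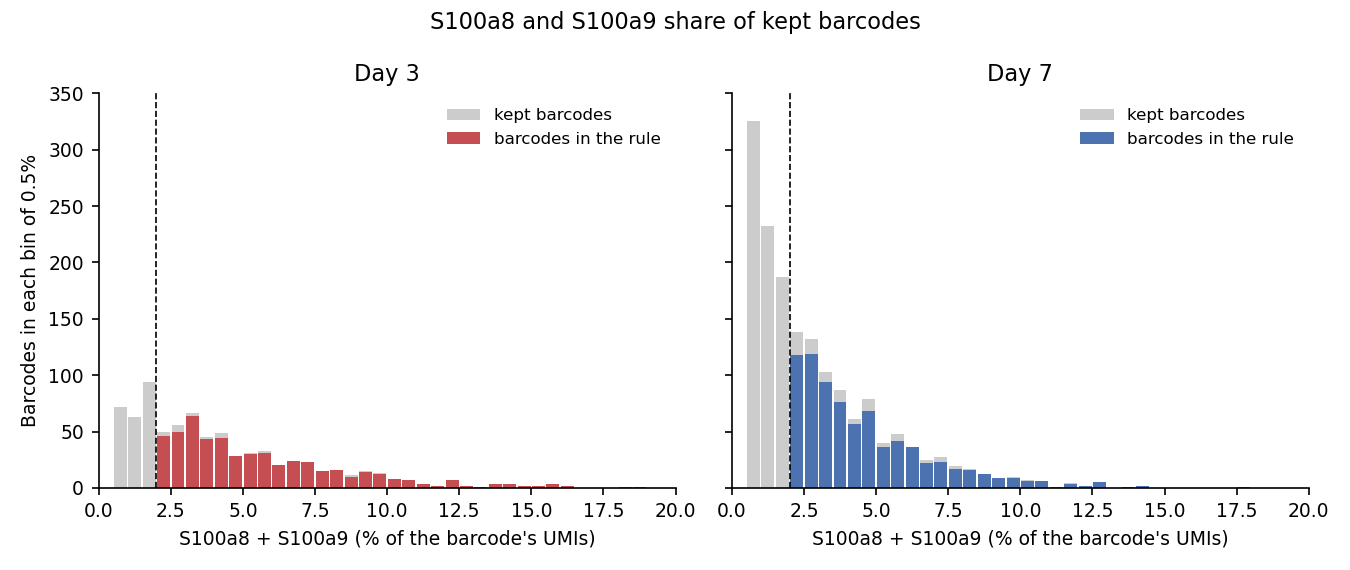
Number of kept barcodes (vertical axis) in each 0.5% bin of the share of UMIs from *S100a8* and *S100a9* (horizontal axis, % of the barcode's UMIs) on Day 3 (left) and Day 7 (right), with the bin from 0 to 0.5% left out. Grey bars are all kept barcodes, coloured bars those in the rule, and the dashed line is the 2% limit; the grey bars run across the limit without a gap, with 94 barcodes in the last bin below it on Day 3.

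The genes used by the rule are given as a description. *S100a9* and *S100a8*, which encode the subunits of calprotectin, stood at 32873 and 25084 CPM on Day 3 and at 34661 and 23223 CPM on Day 7. *G0s2*, an inhibitor of triglyceride lipase, was at 5606 and 5598 CPM, and *Csf3r*, the receptor for granulocyte colony-stimulating factor, at 1063 and 1057 CPM. *Cxcr2*, the receptor for the CXCL chemokines that recruit neutrophils, was at 528 CPM on Day 3 and 888 CPM on Day 7. *Retnlg*, a resistin-like secreted protein of granulocytes, was at 1186 and 1279 CPM. The calprotectin genes, *G0s2*, *Csf3r* and *Retnlg* thus lay within 0.11 of equality on the log2 scale, and *Cxcr2* was 0.75 higher on Day 7.

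With every barcode thinned to 300 UMIs without *Gm42418*, *G0s2* had a UMI in 65.1% of neutrophil-like barcodes on Day 3 and 66.4% on Day 7. At the same depth *Csf3r* had one in 26.3% and 30.6%, *Cxcr2* in 14.3% and 25.6%, and *Retnlg* in 20.5% and 19.7%. The C1q-positive barcodes, 701 on Day 3 and 4699 on Day 7, were the macrophage-like comparison. At that depth these 4 genes had a UMI in 0 to 2.02% of them, and the source of these UMIs was not tested. The contrast is no support for the label, since the rule used these genes. Without thinning, all 4 genes were seen together in 13.1% of neutrophil-like barcodes on Day 3 and 4.87% on Day 7, and *G0s2* was the only one of the 4 in 18.1% and 20.4%.

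The label was set beside neutrophil markers that the rule did not use, a list chosen with earlier results of these data known. The C1q-positive barcodes held under 2% *S100a8* and *S100a9* by definition, so low sums of these markers there may be partly set by that choice. All 17 such markers had UMIs on both days, some of them very few, with a summed level of 23713 CPM on Day 3 and 20142 CPM on Day 7, against 772 and 599 CPM in C1q-positive barcodes. The sum rested mostly on *Slpi*, *Hdc*, *Mxd1*, *Il1r2* and *Clec4d*. Of the 17, 14 had a mean level of at least 50 CPM, and none of the 14 differed by 2-fold between days, with a median log2 ratio of −0.16 and a range of −0.81 to 0.36. Over all genes compared, 12.5% were at least 2-fold higher on Day 7 and 4.55% at least 2-fold lower. *Hdc*, the histidine decarboxylase that makes histamine, was at 5393 CPM on Day 3 and 3572 CPM on Day 7. *Slpi*, a secreted inhibitor of elastase, was at 4533 and 4958 CPM. *Il1r2*, a decoy receptor for interleukin-1, was at 2906 and 2058 CPM, and *Lcn2*, the siderophore-binding lipocalin of specific granules, at 558 and 551 CPM. Genes such as *Hdc*, *Slpi* and *Il1r2* are also known from inflammatory monocytes and macrophages, so their levels alone do not separate the label from such cells. *Stfa2l1*, a stefin protease inhibitor outside the rule, was 106-fold above all other kept barcodes on Day 3 and 146-fold on Day 7, among the 10 highest folds on both days. *Ly6g*, the surface antigen used to sort murine neutrophils, was low, at 24.5 and 19.8 CPM from 16 and 8 barcodes. *Ltf* and *Cd177*, also in the list, were low too. In the 627 Day 7 barcodes without a *Retnlg* UMI after thinning they were at 4.88 and 7.31 CPM, from 2 and 3 UMIs.

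**Figure D2:**
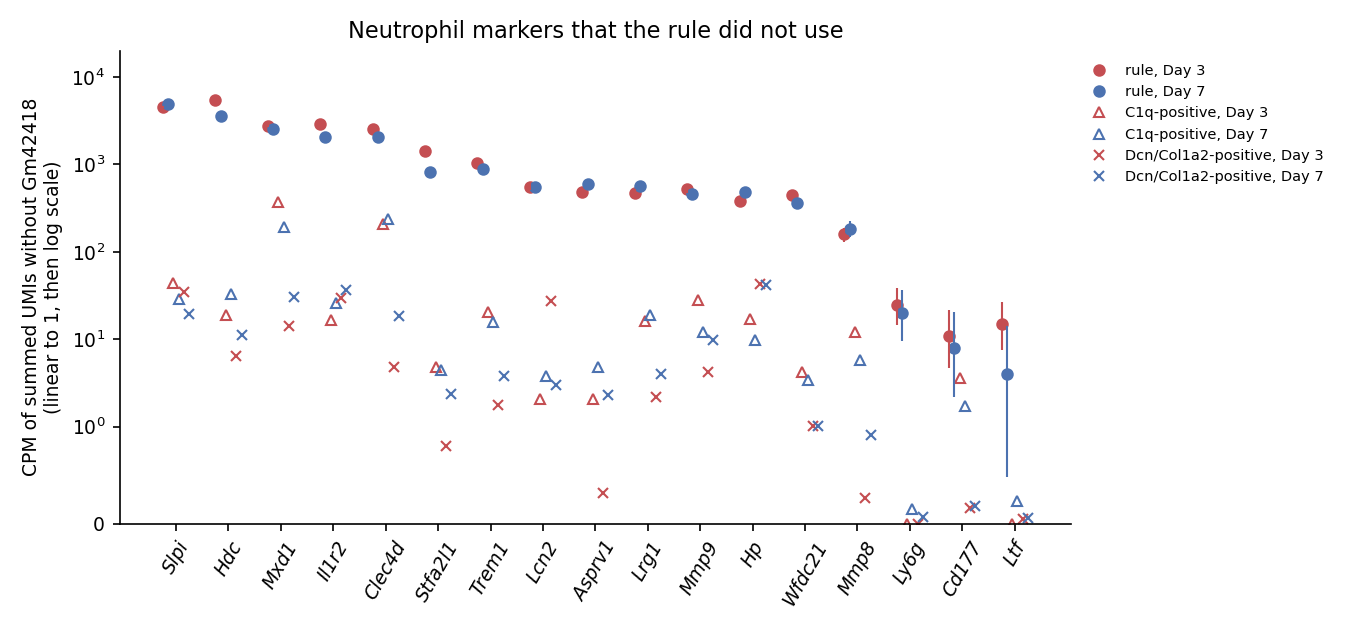
Level (vertical axis, CPM of summed UMIs without *Gm42418*, linear to 1 and then logarithmic) of the 17 neutrophil markers that the rule did not use. Filled circles are the neutrophil-like barcodes with 95% Poisson intervals, triangles the C1q-positive barcodes and crosses the *Dcn*- or *Col1a2*-positive barcodes, red for Day 3 and blue for Day 7; the filled circles of both days lie close together and above the other barcodes from *Slpi* to *Mmp8*.

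No granule or oxidase gene compared differed by 2-fold between the days. The 4 genes of azurophil granule proteins made at the promyelocyte stage, *Mpo*, *Elane*, *Prtn3* and *Ctsg*, had 0 UMIs on both days, for which a limit of 3 UMIs over the group was taken, or 4.09 CPM per gene on Day 3 and 5.95 CPM on Day 7. Of 11 specific and gelatinase granule genes 6 had a mean of at least 50 CPM, none differed by 2-fold, and their median log2 ratio was −0.10. *Ngp*, of the same list, had 0 UMIs on Day 7. *Mmp9*, gelatinase B, was at 521 and 456 CPM (log2 ratio −0.19, interval −0.43 to 0.05). All 7 NADPH oxidase genes were measured at that level and none differed by 2-fold. *Ncf1*, the p47phox subunit, was at 589 and 400 CPM (−0.56, −0.80 to −0.31). None of 8 cell cycle genes reached a mean of 50 CPM.

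Over all genes, 2288 had a mean of at least 50 CPM in the neutrophil-like barcodes outside the rule, and these had a median log2 ratio of 0.14 for Day 7 over Day 3. At least 2-fold higher on Day 7 were 285 (12.5%), and at least 2-fold lower were 104 (4.55%). With *Gm42418* kept in the totals the split turned to 117 higher and 217 lower, and the median moved to −0.18, so small positive ratios changed sign, as that of *Slpi* did from 0.13 to −0.19. These figures cover all genes, those of other cells in the wound included, so a list's median below them does not set the list apart from other neutrophil transcripts. Gene lists are described by their counts and medians only.

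Cytokine and chemokine genes lay mostly lower on Day 7. Of 24 listed genes 19 had a mean of at least 50 CPM, 7 of these were at least 2-fold lower and 1 was 2-fold higher, and the median log2 ratio was −0.69. The 24 genes summed to 98474.5 CPM on Day 3 and 59157 CPM on Day 7. They were lower on Day 7 in other barcodes too. Their sums were 13094 and 9016 CPM in C1q-positive and 8098 and 5957 CPM in *Dcn*- or *Col1a2*-positive barcodes. *Cxcl2*, a CXCR2 ligand and the most abundant transcript of the Day 3 barcodes, was at 43407 CPM on Day 3 and 32199 CPM on Day 7 (−0.43, −0.46 to −0.40). *Cxcl3*, a closely related ligand, was at 8464 and 2694 CPM (−1.65, −1.74 to −1.57). These genes for ligands of the same receptor thus differed between days by unequal amounts.

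*Il1b*, the secreted pyrogenic interleukin-1, was at 17081 CPM on Day 3 and 8679 CPM on Day 7 (−0.98, −1.03 to −0.93), just short of 2-fold. At 300 UMIs it was found in 93.2% and 83.1% of the barcodes, against 19.1% and 9.62% of C1q-positive barcodes. *Il1a* was at 729 and 345 CPM (−1.08) and *Il1rn*, the interleukin-1 receptor antagonist, at 2979 and 1396 CPM (−1.09). Among barcodes of at least 1000 UMIs, 397 on Day 3 and 128 on Day 7, the ratios were −0.95 for *Il1b*, −0.24 for *Il1a* and −0.75 for *Il1rn*. The agonists and the antagonist were thus all lower on Day 7, by amounts that depended on the depth asked for.

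*Ccl3* and *Ccl4*, inflammatory chemokines, were at 6524 and 13169 CPM on Day 3 and at 2980 and 6526 CPM on Day 7, with log2 ratios of −1.13 and −1.01. *Tnf* was at 643 and 260 CPM (−1.31, −1.60 to −1.03). Among barcodes of at least 1000 UMIs none of the 3 was 2-fold lower, with −0.69 for *Ccl3*, −0.48 for *Ccl4* and −0.97 for *Tnf*. *Il23a*, the p19 subunit of interleukin-23, which acts on T cells that make interleukin-17, was at 581 CPM in 79 barcodes on Day 3 and 79.3 CPM in 22 barcodes on Day 7 (−2.87, −3.38 to −2.40). It was among the 10 lowest ratios of all genes compared. *Tnfsf14* (LIGHT), the 1 gene higher by 2-fold, was at 28.6 and 73.4 CPM in 20 and 32 barcodes.

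Further genes were chosen after their values were seen, of which *Thbs1* alone is in a list. *Spp1* (osteopontin) was at 8156 and 2639 CPM (−1.63), *Csf3*, the neutrophil growth factor, at 432 and 127 CPM (−1.77), and *F3*, the tissue factor that starts coagulation, at 464 and 131 CPM (−1.82). *Thbs1*, a matrix glycoprotein that activates latent TGF-beta, differed little, with 13518 and 12317 CPM (−0.13, −0.18 to −0.09). *Acod1*, which makes itaconate, was at 7067 and 3907 CPM (−0.85).

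**Figure D3:**
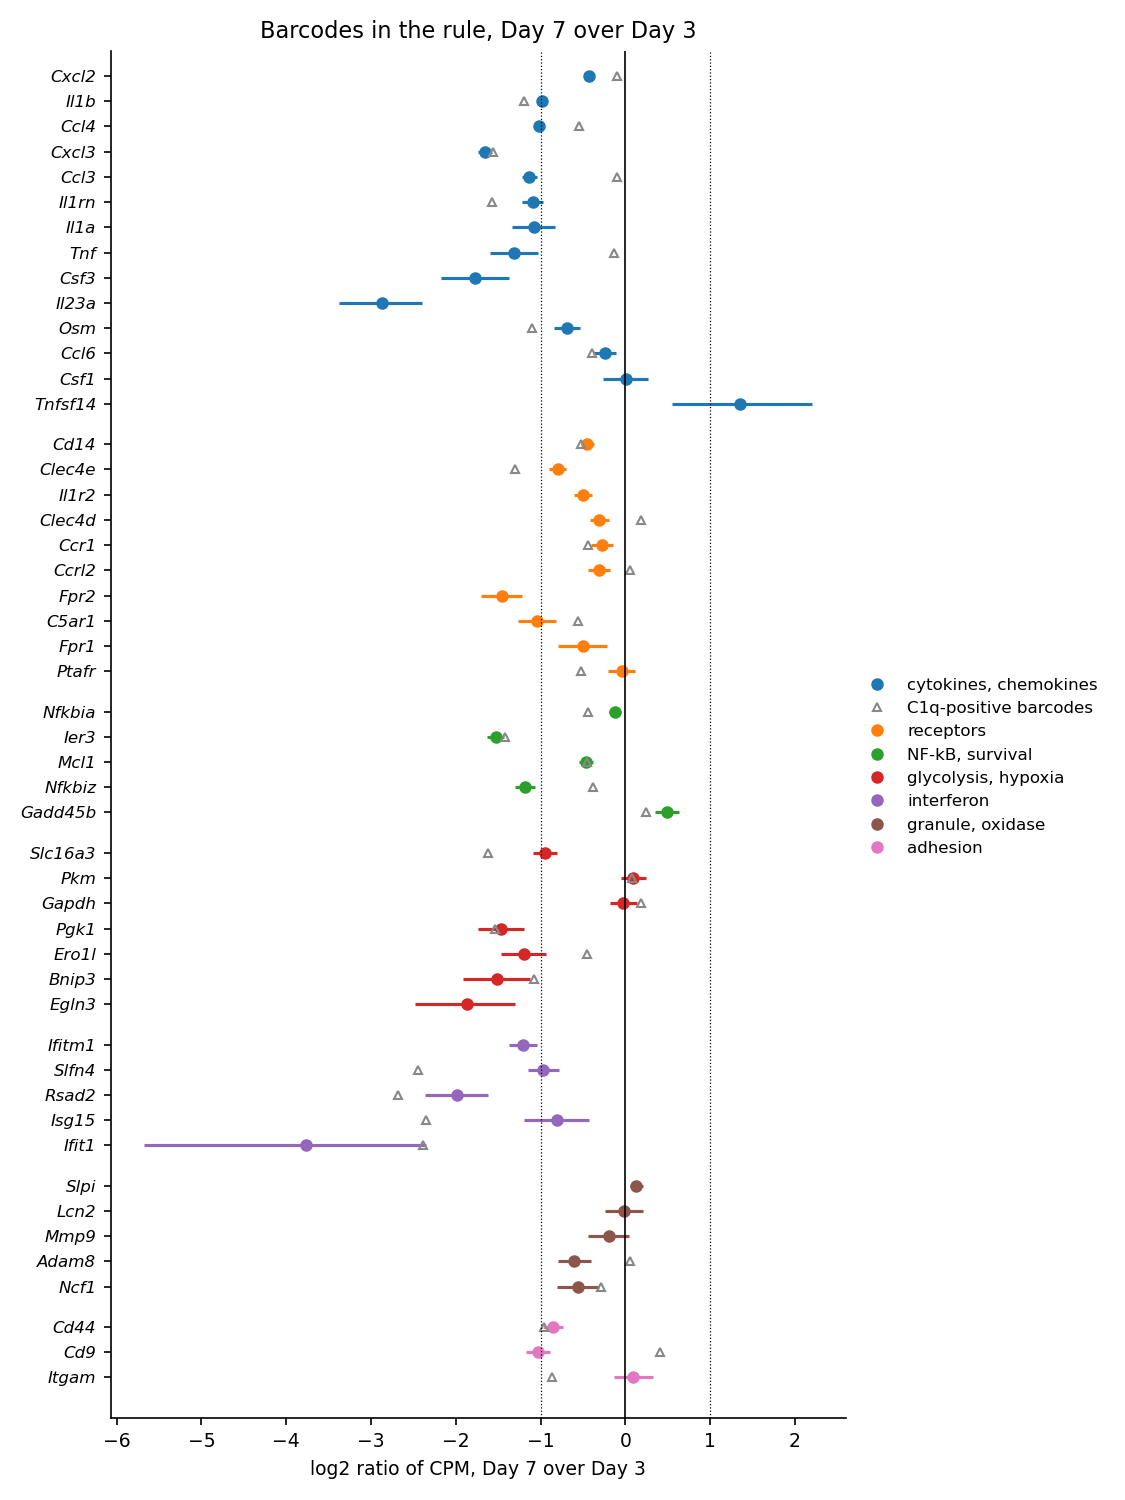
Log2 ratio of CPM on Day 7 over Day 3 (horizontal axis) for genes named in the text and other members of the lists (vertical axis), with 95% counting intervals as bars and colours for the gene groups. Grey triangles are the C1q-positive barcodes, drawn where their level was at least 50 CPM on a day, and dotted lines mark 2-fold; most cytokine, hypoxia and interferon genes lie left of 0, and the granule and oxidase genes shown lie between the 2-fold lines.

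The listed receptors for chemoattractants and cytokines, which leave out *Cxcr2* and *Csf3r* as genes of the rule (0.75 higher on Day 7 and near equality), lay on the same side. All 14 genes compared of 16 had a ratio below 0, 2 were at least 2-fold lower and none was 2-fold higher, with a median of −0.40. The 16 genes summed to 13604 CPM on Day 3 and 9990 CPM on Day 7. In C1q-positive barcodes their sums were also lower on Day 7, at 4393 and 2954 CPM. In *Dcn*- or *Col1a2*-positive barcodes they were at 204 and 326 CPM. Whether these differences are particular to the neutrophil-like barcodes was not tested. *Fpr2*, a formyl peptide receptor, was at 991 and 361 CPM (−1.46, −1.70 to −1.22), and *C5ar1*, the receptor for the complement fragment C5a, at 928 and 452 CPM (−1.04). *Ccr1* was at 1945 and 1608 CPM (−0.27), and *Ptafr*, the receptor for platelet-activating factor, at 1074 and 1043 CPM (−0.04, −0.20 to 0.12). Of 13 pattern, Fc and lectin receptors none was 2-fold lower and 1 was higher, with a median of −0.29. *Cd14*, the lipopolysaccharide co-receptor, was at 6312 and 4631 CPM and *Clec4e* (Mincle) at 3835 and 2208 CPM. The gene higher was *Fcgr2b*, the inhibitory Fc receptor, at 27.3 and 131 CPM, and it is also a macrophage transcript.

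Of 8 adhesion genes compared, 1 was 2-fold lower and none higher, and the median was 0.00. *Cd44*, the hyaluronan receptor, was at 2957 CPM on Day 3 and 1634 CPM on Day 7 (−0.86), and the tetraspanin gene *Cd9* at 2318 and 1138 CPM (−1.03). *Itgam*, the integrin alpha chain CD11b, was at 519 and 555 CPM (0.10, −0.13 to 0.32). Of 6 surface genes listed for tissue neutrophils 5 were compared, and none of these differed by 2-fold, with a median of −0.62.

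Most interferon-stimulated genes that could be compared had a ratio below 0. Of 16 listed genes 7 reached a mean of 50 CPM, of which 6 were below 0, 3 were at least 2-fold lower and none higher, with a median of −0.97. *Rsad2* (viperin), an antiviral enzyme, was at 571 CPM in 85 barcodes on Day 3 and 145 CPM in 46 barcodes on Day 7 (−1.98, −2.36 to −1.62). *Ifit1*, which binds foreign RNA caps, was at 108 CPM in 29 barcodes and 7.93 CPM in 4 barcodes (−3.76, −5.67 to −2.35). In the barcodes with 0 UMIs of the C1q genes, *Dcn* and *Col1a2* its value was −0.30, with a count of 0 set at 3 UMIs. With so few barcodes holding *Ifit1* on Day 7, that value can rest on the setting. *Isg15*, a ubiquitin-like modifier, was at 277 and 159 CPM (−0.80). *Ifitm1* was at 1798 and 777 CPM (−1.21) and *Slfn4* at 1283 and 656 CPM (−0.97). In C1q-positive barcodes of the same libraries the log2 ratios of *Rsad2*, *Ifit1*, *Isg15* and *Slfn4* were −2.68, −2.39, −2.35 and −2.45, and that of *Ifitm1* was 0.19.

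Interferon-stimulated genes are classically switched on through an element read by the STAT and IRF factors, and the letters GAAA, 2 bases of any kind and GAAA again were searched on both strands in RefSeq promoter windows of GRCm38.p6, from 250 bases before to 50 after each start site. Matches could overlap. They were found in a window of 3.99% of 27025 genes and of 7 of the 15 listed interferon genes that had one. The stretches before the start sites of 3 of the genes above are shown because the matched letters, in capitals, lie in each of them.
Rsad2, chr12:26456528-26456607, minus strand: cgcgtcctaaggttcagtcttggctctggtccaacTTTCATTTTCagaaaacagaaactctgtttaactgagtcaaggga
Ifit1, chr19:34640750-34640848, plus strand: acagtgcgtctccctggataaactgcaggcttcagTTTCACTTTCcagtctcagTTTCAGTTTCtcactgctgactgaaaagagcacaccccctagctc
Isg15, chr4:156200840-156200931, minus strand: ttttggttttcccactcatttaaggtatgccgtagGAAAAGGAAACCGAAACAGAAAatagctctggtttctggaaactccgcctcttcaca
All 3 read 5′ to 3′ on the strand of the gene. *Ifit1* held 2 matches and *Isg15* 3 overlapping ones. A match describes the letters of the window and was not tied to binding or to the levels here.

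NF-kB targets and survival genes were mixed in size. Of 16 compared, 3 were at least 2-fold lower and none higher, with a median of −0.49. The 18 listed genes summed to 27102 CPM on Day 3 and 18367.5 CPM on Day 7. Other barcodes were lower on Day 7 as well. Their sums were 8443 and 5905 CPM in C1q-positive and 6888 and 4610 CPM in *Dcn*- or *Col1a2*-positive barcodes. *Ier3*, an early-response survival gene, was at 5706 and 1982 CPM (−1.53, −1.63 to −1.43), and *Nfkbiz*, a nuclear coactivator of NF-kB, at 3595 and 1584 CPM (−1.18). *Nfkbia*, the inhibitor that retains NF-kB in the cytoplasm, was at 6065 and 5583 CPM (−0.12, −0.19 to −0.05). *Mcl1*, on which neutrophil survival depends, was at 4714 and 3426 CPM (−0.46). *Bcl2a1d* was at 94.1 and 33.7 CPM, but its near-identical copies *Bcl2a1a* and *Bcl2a1b* may share its reads, so the division among them is uncertain.

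The letters GGGA, 1 base of any kind and TTTCC, a form of the NF-kB motif, were found in a window of 0.466% of the same genes, in 5 of 19 listed cytokine genes with a window (*Csf1*, *Cxcl1*, *Cxcl2*, *Cxcl3* and *Il6*) and in 1 of 15 NF-kB and survival genes (*Nfkbia*). The 3 shown are those of abundant transcripts, with the matched letters in capitals on either strand.
Cxcl2, chr5:90903767-90903846, plus strand: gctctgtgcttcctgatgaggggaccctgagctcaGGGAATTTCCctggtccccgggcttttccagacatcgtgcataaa
Cxcl3, chr5:90785993-90786072, plus strand: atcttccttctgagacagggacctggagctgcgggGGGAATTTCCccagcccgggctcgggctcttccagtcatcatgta
Nfkbia, chr12:55492648-55492711, minus strand: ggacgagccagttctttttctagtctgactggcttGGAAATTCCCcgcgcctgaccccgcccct
*Cxcl2* and *Cxcl3* carried the same 10 letters, and those of *Nfkbia* are the same when read on the other strand. These matches too were not tied to binding or to the levels here.

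Genes of glycolysis and hypoxia were mostly lower on Day 7. All 21 were compared, 5 were at least 2-fold lower and 1 was higher, and the median was −0.76. *Egln3*, the oxygen-sensing hydroxylase induced by hypoxia, was at 217 and 59.5 CPM (−1.87, −2.48 to −1.30). *Bnip3*, a mitophagy receptor, was at 390 and 137 CPM (−1.51) and *Pgk1*, a glycolytic kinase, at 808 and 293 CPM (−1.46). *Ero1l*, an endoplasmic reticulum oxidase, was at 710 and 309 CPM (−1.20) and *Higd1a* at 140 and 61.5 CPM (−1.19). *Slc16a3*, the lactate exporter, was at 2180 and 1130 CPM (−0.95). *Gapdh* and *Pkm*, also glycolytic enzymes, were at 1119 and 1102 CPM (−0.02) and at 1204 and 1285 CPM (0.09), so members of the pathway differed by unequal amounts. *Ndrg1* was the member 2-fold higher, at 46.3 and 133 CPM. In C1q-positive barcodes the ratios of *Pgk1*, *Bnip3* and *Slc16a3* were −1.53, −1.08 and −1.62.

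Among enzymes of lipid mediators, *Ptgs2*, the inducible cyclooxygenase, was at 7057 CPM on Day 3 and 2496 CPM on Day 7 (−1.50, −1.59 to −1.41). *Alox5ap*, which presents arachidonate to 5-lipoxygenase, was at 690 and 472 CPM (−0.55), and *Pla2g7*, which degrades platelet-activating factor, at 254 and 438 CPM (0.79). These were the 3 of 9 listed genes above the limit. Of 10 protease inhibitor and matrix genes compared, 3 were 2-fold lower and 1 was higher. *Plaur*, the urokinase receptor, was at 1587 and 579 CPM (−1.45) and *Wfdc17* at 1358 and 509 CPM (−1.41). *Stfa1*, a stefin, was at 124 and 55.5 CPM, and *Timp2*, a metalloprotease inhibitor, was the higher one, at 194 and 398 CPM.

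Transcription factors of granulocytes went both ways, with 1 of 7 compared 2-fold higher and 1 lower. *Cebpb*, the factor of emergency granulopoiesis, was at 12280 and 6241 CPM (−0.98), *Bhlhe40* at 724 and 236 CPM (−1.62), and *Cebpd* at 101 and 212 CPM (1.07). Of 13 immediate early and heat shock genes none was 2-fold lower and 4 were higher, namely *Jun* (249 and 732 CPM), *Atf3* (143 and 319), *Hspa1a* (23.2 and 113) and *Hspa1b* (43.6 and 194). *Junb* was at 8035 and 4175 CPM (−0.94).

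Lysosomal, lipid droplet and iron genes had a median of 0.44, the highest of the fixed lists apart from other-cell markers, ribosomal and mitochondrial transcripts. Of 17 compared, 3 were 2-fold higher and none was lower, against 12.5% and 4.55% of all genes compared. The 17 genes summed to 32235 and 41277 CPM, below the 43780 and 55512 CPM of C1q-positive barcodes. Those barcodes were thus higher on Day 7 too, as were *Dcn*- or *Col1a2*-positive ones, at 8221 and 12667.5 CPM. *Psap*, the precursor of saposins, was at 624 and 1378 CPM (1.14, 0.97 to 1.32) and *Lamp1* at 149 and 335 CPM (1.17). *Npc2*, a lysosomal cholesterol carrier, was at 113 and 232 CPM (1.04). *Fth1*, the ferritin heavy chain, was at 21572 and 27279 CPM (0.34, 0.31 to 0.37). Of 78 cytosolic ribosomal protein genes compared 35 were 2-fold higher on Day 7 and none was lower, with a median of 0.91. Their summed level was 18691 and 29838 CPM, still below the 90569 CPM of C1q-positive barcodes on Day 7.

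The 10 highest ratios of Day 7 over Day 3 were those of *Col6a3* (6.26), *Col12a1* (6.18), *Postn* (6.11), *Lum* (6.03), *Col6a1* (5.97), *Dpt* (5.72), *Col6a2* (5.38), *Col14a1* (5.32), *Aspn* (5.18) and *Aebp1* (5.0), all genes of matrix proteins or their partners known from fibroblasts. These genes passed the limit of 50 CPM through Day 7 and had 1 to 6 UMIs on Day 3, so the sizes of their ratios are uncertain, with counting intervals between 3.26 for *Aspn* and 11.5 for *Col12a1*. *Col6a3* was at 4.09 CPM in 2 barcodes on Day 3 and at 313 CPM in 147 barcodes on Day 7.

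The 8 fibroblast markers summed to 612 CPM on Day 3 and 10457 CPM on Day 7 in the neutrophil-like barcodes, 1.00% and 8.97% of their level in *Dcn*- or *Col1a2*-positive barcodes. The 9 macrophage markers summed to 431 and 2641 CPM, 3.25% and 10.1% of their level in C1q-positive barcodes. *Col3a1* was at 229 and 3087 CPM and *Apoe* at 151 and 1776 CPM. A UMI of these 17 markers was absent from 176 of 518 barcodes on Day 3 and from 0 of 781 on Day 7.

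Of the 285 genes 2-fold higher on Day 7, 235 (82.5%) were higher in C1q-positive or in *Dcn*- or *Col1a2*-positive barcodes of that day than in the neutrophil-like ones, against 47.0% of all genes compared. This held for *Psap* and *Lamp1* as well, and for *Jun*. Of the 104 genes lower, 33 (31.7%) were. The part of transcripts of other cells in the levels of Day 7, and in the lower share left for neutrophil transcripts, was not tested. The monocyte list summed to 334 and 799 CPM and the list of dendritic cells and MHC class II to 273 and 1487 CPM. The marker lists of T cells, B cells, mast cells, eosinophils, platelets, epithelium and endothelium each summed to under 30 CPM on both days.

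The differences were also taken in narrower sets of barcodes. With 0 UMIs of *C1qa*, *C1qb*, *C1qc*, *Dcn* and *Col1a2* asked for, 337 barcodes remained on Day 3 and 71 on Day 7. Among these the log2 ratio of Day 7 over Day 3 was −1.0 for *Il1b*, −1.62 for *Cxcl3*, −1.87 for *Ptgs2*, −2.37 for *Rsad2* and −1.31 for *Ier3*, each with the sign it had in all barcodes. *Slfn4* was nearer to 0, at −0.41. The value of *Ifit1* was nearer to 0 as well, but it can rest on the level of 0 set at 3 UMIs. *Psap* was at 1.27, and the fibroblast marker *Col3a1* was at 3.73. With at least 1000 UMIs asked for, *Cxcl3* was at −1.36 and *Csf3* at −0.50.

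**Figure D4:**
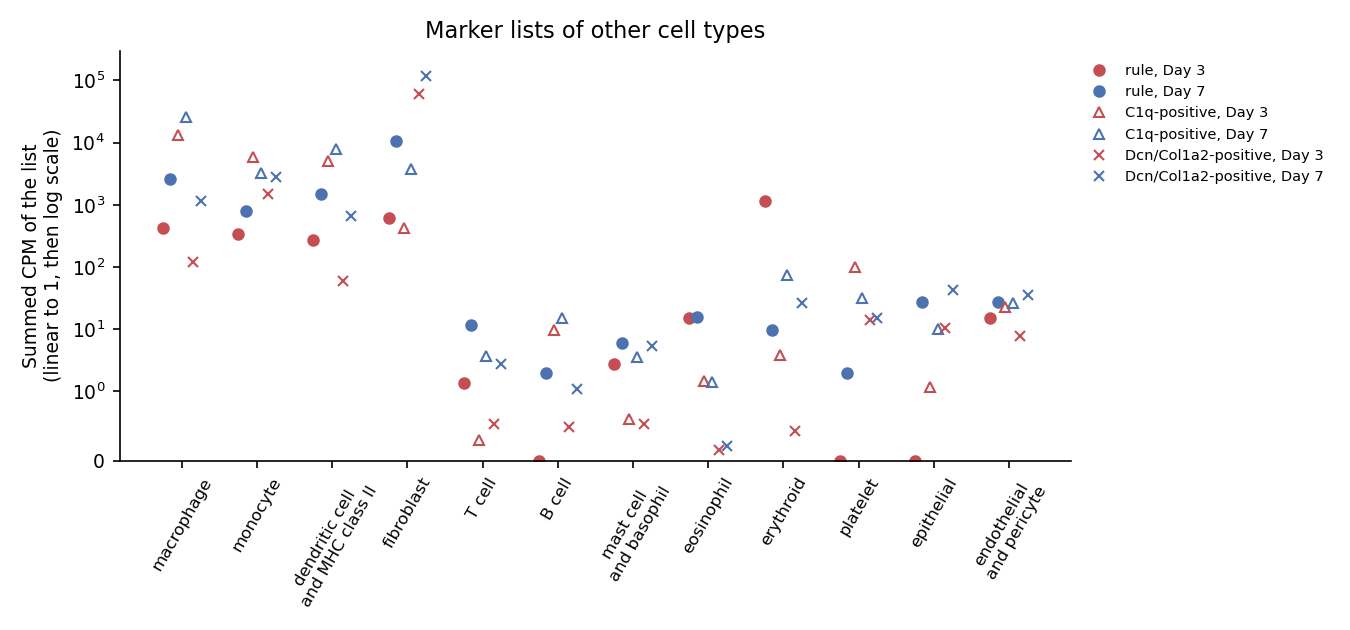
Summed level (vertical axis, CPM without *Gm42418*, linear to 1 and then logarithmic) of the marker lists of 12 other cell groups (horizontal axis). Filled circles are the neutrophil-like barcodes, triangles the C1q-positive and crosses the *Dcn*- or *Col1a2*-positive barcodes, red for Day 3 and blue for Day 7; the fibroblast list moved from 612 to 10457 CPM in the neutrophil-like barcodes.

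The 10 lowest ratios of all genes were those of *Ifit1* and *Il23a*, already given, of *Gm42659* (−2.84), *2010005H15Rik* (−2.61), *Cd69*, an early activation marker (−2.28), and *Schip1* (−2.14), and of 4 haemoglobin genes. *Cd69* was at 164 CPM in 47 barcodes and 33.7 CPM in 14 barcodes. *Hba-a1*, *Hba-a2*, *Hbb-bs* and *Hbb-bt* had all their Day 3 UMIs in 1 barcode, so their ratios of −7.01, −6.93, −6.44 and at most −4.27 rest on that droplet. *Lars2* and *AY036118*, chosen after their values were seen, were at 131 and 69.5 CPM on Day 3 and at 3174 and 724 CPM on Day 7, in the library where *Gm42418* was high.

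The barcodes were then divided by *Retnlg*, with at least 1 UMI against 0 UMIs, within each day. *Retnlg* is itself a gene of the rule. Positive barcodes thus met that step by it, and negative ones by *Csf3r*, *Cxcr2* or *G0s2*. There were 221 positive and 297 negative barcodes on Day 3, and 236 and 545 on Day 7. At 300 UMIs per barcode the positive share was 20.5% (17.1 to 24.2) on Day 3 and 19.7% (17.0 to 22.7) on Day 7, and before thinning it was 42.7% and 30.2%. *Retnlg* was uneven, since the tenth of barcodes with the most held 64.1% of its UMIs on Day 3 and 67.3% on Day 7. Positive barcodes were slightly deeper, with medians of 1323 against 1224 UMIs on Day 3 and 774 against 726 on Day 7. A negative barcode may hold *Retnlg* mRNA that was not captured.

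The number of genes past 2-fold between the groups depended on the depth and the barcodes used. On Day 3, 2010 genes were compared, and 21 (1.04%) were at least 2-fold higher and 35 (1.74%) at least 2-fold lower in *Retnlg*-positive barcodes. On Day 7, 2468 genes were compared, and 44 (1.78%) were higher and 62 (2.51%) lower. In counts simulated at these depths, 0.77% of unchanged genes passed 2-fold in either direction on Day 3 and 3.16% on Day 7. Other genes were changed in that simulation, which moves the totals, and it held no spread between barcodes. The counts can thus include genes carried past 2-fold by counting error, above all on Day 7. No such simulation was run for the narrower settings given next. After thinning to 300 UMIs the counts were 261 higher and 213 lower on Day 3 and 257 and 190 on Day 7, and among barcodes of at least 1000 UMIs they were 47 and 48 on Day 3 and 251 and 339 on Day 7. The counts that follow are those of all barcodes without thinning. Of 1874 genes compared on both days 55.7% had the same sign. None was 2-fold different in the same direction on both days, and 1, *Rsad2*, was so in opposite directions.

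The 10 highest ratios on Day 3 were those of *Ints6*, *Syne1*, *Kctd20*, *Etv6*, *Ing2*, *Usp15*, *Rell1*, *Arrb2*, *Pdcd6* and *Crtc2*, from 1.68 to 1.15. After thinning to 300 UMIs *Ints6*, *Ing2* and *Pdcd6* were on the other side, at −0.74, −0.36 and −0.85. The ratios rested on few UMIs, and on Day 7 their ratios ran from −0.67 for *Kctd20* to 1.25 for *Ints6*, whose Day 3 UMIs in positive barcodes came to 71.0% from 1 barcode. *Ints6* was below the limit of 50 CPM on Day 7, and so was not among the genes compared on both days. The lowest ratios outside the haemoglobin genes were those of *Itgb1* (−3.08), *Bcl2a1a* (−2.69), *Ccl7* (−1.79), *Ostc* (−1.69), *Prkcb* (−1.64) and *Odc1* (−1.58). *Itgb1*, the integrin beta-1 chain, was at 12.2 CPM in 4 positive barcodes and 103 CPM in 33 negative barcodes on Day 3, and at 111 and 201 CPM on Day 7 (−0.86, −1.69 to −0.09). *Bcl2a1a* kept its side on Day 7 with 1 barcode against 17, and *Prkcb* and *Odc1* were on the other side, at 0.41 and 0.84. *Ccl7*, of which 1 barcode held 56.2% of the UMIs in negative barcodes on Day 3, was at −0.60 and *Ostc* at −0.75 on Day 7. After thinning, the value of *Ostc* on Day 3 was 0.084, with a count of 0 set at 3 UMIs.

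Smaller differences were compared by their counting intervals, where one that reaches 0 does not show that a difference is absent. Of the 1874 genes, the counting interval lay above 0 for 179 on Day 3 and 83 on Day 7, and below 0 for 140 and 100. It lay above 0 on both days for 26 genes (1.39%) and below 0 on both for 25 (1.33%), and it lay on opposite sides for 8. The genes named next were picked from these after their values were seen. *Slc2a3*, the neuronal-type glucose transporter GLUT3, was at 1334 CPM in positive and 630 CPM in negative barcodes on Day 3 (1.08, 0.86 to 1.31) and at 1039 and 601 CPM on Day 7 (0.79, 0.49 to 1.09). *Adam8*, a granule metalloprotease, had ratios of 0.64 and 0.51, *Ccl6* 0.43 and 0.72, and *Wfdc21* 0.35 and 0.81. The list of glycolysis and hypoxia, to which *Slc2a3* belongs, did not keep its side, with 15 of 20 members compared above 0 on Day 3 (median 0.21) and 15 of 21 below 0 on Day 7 (median −0.24).

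On the other side, *Klf2*, a factor of quiescence, was at 971 CPM in positive and 1682 CPM in negative barcodes on Day 3 (−0.79, −0.99 to −0.60) and at 1113 and 1558 CPM on Day 7 (−0.49, −0.74 to −0.24). *Csf1*, the macrophage growth factor, had ratios of −0.62 and −0.73, *Cxcl3* −0.52 and −0.35, *Nfkbia* −0.31 and −0.24, *Nlrp3*, the inflammasome sensor, −0.30 and −0.28, and *Ccl3* −0.21 and −0.32. *Ccl4* was among the 8 genes with intervals on opposite sides, at −0.31 on Day 3 and 0.17 on Day 7 (0.07 to 0.28). With a UMI of at least 2 of the 4 receptor and marker genes asked for, the ratios of *Csf1* and *Ccl3* on Day 3 were 0.10 and 0.54, and those of *Cxcl3* and *Ccl3* on Day 7 were 0.021 and 0.051. Positive barcodes already hold *Retnlg*, so that limit asks less of them than of negative barcodes, which may partly set these values. *Il23a* had −0.45 and −1.42, the latter from 5 positive and 17 negative barcodes. With 0 UMIs of the C1q genes, *Dcn* and *Col1a2* asked for, its value on Day 7 was 1.06, with a count of 0 set at 3 UMIs. A value that rests on that setting does not show a change of side. *Il1b* did not separate the groups, with −0.01 (−0.06 to 0.04) on Day 3 and −0.04 (−0.13 to 0.05) on Day 7. *Tnf* was at 105 CPM in positive and 333 CPM in negative barcodes on Day 7 (−1.66, −2.49 to −0.92). In the 71 barcodes with 0 UMIs of those 5 genes its value was 1.64, again with a count of 0 set at 3 UMIs. That value does not by itself show a change of side. On Day 3 *Tnf* was at 611 against 670 CPM (−0.13, −0.40 to 0.14).

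**Figure D5:**
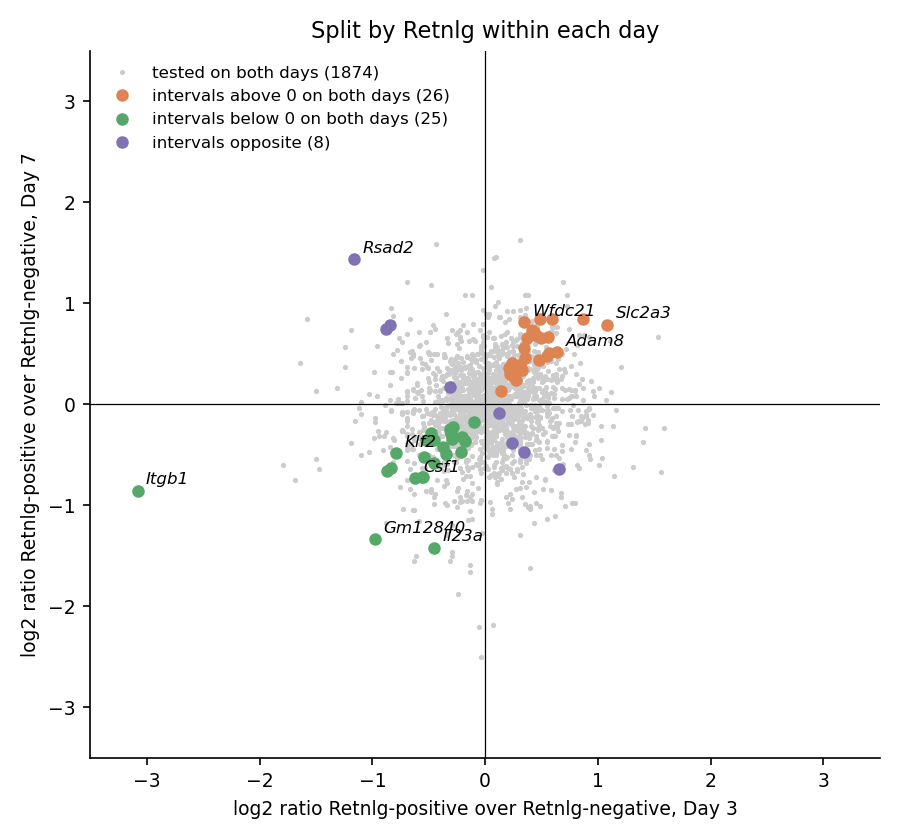
Log2 ratio of *Retnlg*-positive over *Retnlg*-negative barcodes on Day 3 (horizontal axis) and Day 7 (vertical axis) for the 1874 genes compared on both days. Orange points have counting intervals above 0 on both days, green points below 0 on both days and purple points opposite; most genes lie within 1 of 0 on both axes, and *Rsad2* lies at −1.16 and 1.44.

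Markers of other cells were compared between the *Retnlg* groups of each day. The fibroblast list summed to 614 CPM in positive and 611 CPM in negative barcodes on Day 3, and to 10337 and 10514 CPM on Day 7. The macrophage list summed to 424 and 436 CPM on Day 3 and to 2677 and 2623 CPM on Day 7. The fibroblast and macrophage sums thus lay closer together within a day than between days. The monocyte list summed to 287 CPM in positive and 372 CPM in negative barcodes on Day 3, where the 3 members compared were all lower in positive barcodes with a median of −0.77, and to 773 and 811 CPM on Day 7. The erythroid list was at 0 and 2046 CPM on Day 3, all of it in 1 negative barcode, and at 18.5 and 5.84 CPM on Day 7. The list of endothelium and pericytes summed to 9.16 and 19.7 CPM on Day 3 and to 6.18 and 37.9 CPM on Day 7. *C1qa*, held low by the rule, was at 30.5 and 78.8 CPM on Day 3 (−1.37), where 1 barcode held 65.6% of its UMIs in negative barcodes, and without the top barcode of each group its ratio was −0.56. *Gm42418* took 1.35% and 1.24% of UMIs on Day 3 and 20.8% and 21.1% on Day 7. The part of transcripts of other cells in the *Retnlg* differences was not tested.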

How the data were processed

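Single-cell libraries of skin wound cells (1 per day, Chromium 3' v3.1 chemistry, unsorted) were used. The deposited tables held UMI counts per gene and barcode, not normalized, which the authors made with Cell Ranger 6.0.0 on mm10 according to the submitters' processing notes; a filter beyond the barcode calling is not given in the sources used here. Gene IDs of 32158 of 32285 genes were matched to symbols. UMIs of the barcodes that met the rule were summed per day, or per day and *Retnlg* group, and scaled to CPM without *Gm42418*, with Python 3.11.15, numpy 2.4.6, scipy 1.17.1 and pandas 2.3.3. Genes with a mean of at least 50 CPM over the groups compared were kept, and a difference of at least 2-fold was counted. CPM have exact Poisson, shares exact binomial (Clopper-Pearson) and ratios exact conditional binomial 95% intervals, which cover counting error only. A level of 0 was set at 3 UMIs over the group for a ratio. The code was tested on simulated data.

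Named genes were those of the rule, the 10 highest and 10 lowest ratios between days and, on Day 3, between *Retnlg* groups, and 2 to 6 members of each list with the highest level or past 2-fold. The text goes beyond this rule: over 6 members of the cytokine list and of the glycolysis and hypoxia list are named, and list members that are neither past 2-fold nor among the highest, such as *Lcn2* and *Ly6g*, were picked after their values were seen, as were the genes outside the lists. The members and the lists were chosen with earlier results of these data known. No doublet caller was run; the C1q and fibroblast limits remove some doublets, and leaving out barcodes over 5000 UMIs was an alternative. Other alternatives changed the totals, the scaling, the weight of barcodes, the mitochondrial, UMI, S100 and receptor limits, the gene filter and the *Retnlg* split. Motifs were searched in RefSeq promoter windows of GRCm38.p6, the assembly that mm10 names, clipped at the start site for printing.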

Additional observations from a re-analysis of the deposited data

Results flagged for a closer look

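*Rsad2* stood out because the *Retnlg* groups differed in opposite directions on the 2 days. On Day 3 its log2 ratio of *Retnlg*-positive over *Retnlg*-negative barcodes was −1.16 (−1.49 to −0.84), at 339 against 758 CPM, with UMIs in 30 of 221 and 55 of 297 barcodes. On Day 7 it was 1.44 (0.74 to 2.15), at 253 against 93.4 CPM, with UMIs in 25 of 236 and 21 of 545 barcodes. With *S100a8* and *S100a9* at 5% of UMIs or more the Day 3 ratio was −0.17. With 1 library per day the difference between the days was not tested.

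On Day 14, which enters no comparison, 11 of 14477 kept barcodes met the rule. Their median was 980 UMIs, and *S100a8* and *S100a9* stood at 39299 and 41908 CPM. *Slpi* was at 11578 CPM in 9 of the 11 barcodes, and *Spp1* had 0 UMIs. There was no control library to compare this number with.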

How the results depend on the processing

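No paired analysis was possible because there is 1 library per day. The log2 ratio of the share of barcodes (−1.68) was −1.90 with at most 5% mitochondrial UMIs, −3.91 with at least 1000 UMIs, −2.24 with S100 at 5%, −1.86 with at least 2 receptor genes, −4.52 with 0 UMIs of C1q, *Dcn* and *Col1a2*, and −2.22 with at least 500 UMIs without *Gm42418*. In some other settings the ratio was smaller in size. It was −1.66 with at most 20% mitochondrial UMIs and −1.63 with no receptor UMI asked for. The S100 limit counts *Gm42418* in the total of a barcode. With the shares of the rule taken without it, 527 and 865 barcodes met the rule and the ratio was −1.56. The setting of at least 500 UMIs without *Gm42418*, and those on S100 shares without *Gm42418*, haemoglobin barcodes and genes resting on 1 barcode, were chosen after seeing the data. Asking for 0 UMIs of the fibroblast and macrophage lists left no Day 7 barcode and gave no value.

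Counts of genes past 2-fold are given as higher and lower. For the days (285 and 104), they were 117 and 217 with *Gm42418* kept, 566 and 213 with 0 UMIs of C1q, *Dcn* and *Col1a2*, 750 and 166 at a mean of 20 CPM, and 856 and 196 with 20 UMIs as the only filter, and without the 50 most abundant genes 190 were lower. For *Retnlg* on Day 3 (21 and 35), they were 68 and 90 without the 50 most abundant genes, 112 and 76 with S100 at 5%, 35 and 67 with 2 receptor genes, 61 and 70 with 0 UMIs of the 5 genes, 147 and 163 at 20 CPM, 83 and 118 with 20 UMIs, 261 and 213 after thinning, and 51 and 58 with 2 *Retnlg* UMIs. The mean of each barcode's CPM gave 33 higher, and at least 1000 UMIs gave 47. For *Retnlg* on Day 7 (44 and 62), they were 25 and 34 with *Gm42418* kept, 94 and 135 without the 50 most abundant genes, 251 and 339 at 1000 UMIs, 182 and 224 with S100 at 5%, 1017 and 184 with 0 UMIs of the 5 genes, 258 and 306 at 20 CPM, 257 and 190 after thinning, and 136 and 130 with 2 *Retnlg* UMIs. At least 500 UMIs without *Gm42418* gave 79 higher, and 2 receptor genes and 20 UMIs gave 111 and 137 lower. With 0 UMIs of the 5 genes, 71 barcodes were left on Day 7, and a count of 0 was set at 3 UMIs. The 1017 genes counted as higher can therefore include some with 0 UMIs in the positive barcodes.

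Of single genes past 2-fold, these changed sign, with a level of 0 set at 3 UMIs. A sign that rests on this setting does not show a change of direction. *Hbb-bt* had 0 UMIs in positive barcodes on Day 3 before thinning. Between days *Hbb-bs* was at 0.11 with 2 receptor genes and 0.54 without haemoglobin barcodes. After thinning, the *Retnlg* ratios on Day 3 were 0.22 for *Hbb-bt*, −0.36 for *Ing2*, −0.74 for *Ints6*, 0.084 for *Ostc* and −0.85 for *Pdcd6*, and on Day 7 −0.090 for *Tnfsf14*. With 0 UMIs of the 5 genes *Ints6* was at 0.29 between days, and the *Retnlg* ratios on Day 7 were 1.06 for *Il23a* and 1.64 for *Tnf*. Over the named genes past 2-fold, 3 of 1117 values changed sign between days, 5 of 463 for *Retnlg* on Day 3 and 3 of 76 on Day 7, and over those within 2-fold 71 of 867, 125 of 1482 and 191 of 1916 did. The cause of these changes was not tested. At this depth genes under a mean of 50 CPM entered the counts only in those alternatives with a lower limit. Values of single genes under that limit are given in places in the report.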
